A study of Mus musculus with 20 samples.

Results

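The libraries described here hold the RNA on tagged ribosomes of hippocampal granule cells at postnatal day 5 (P5) and postnatal day 10 (P10), and were chosen as the 3 P5 and 3 P10 libraries of a single batch, 6 of the 20 libraries of the series. Every library came from mice with both Rbp4-Cre and RiboTag, an allele of Rpl22 that gains an HA tag once Cre has acted on it, so that ribosomes of Cre-expressing cells are marked. Rbp4-Cre is used to reach granule cells in the hippocampus, and in the neocortex it is active in deep-layer neurons. Ribosomes were pulled from a lysate of hippocampus with anti-HA beads, and poly-adenylated RNA was sequenced from what came down, so a level is that of ribosome-bound RNA and not of the whole cell. The labels name no treatment, and strain, sex and the number of animals behind a library are not stated in the labels. The 2 ages differ in nothing else that the labels name, and p-values measure the spread between these samples, which may be technical. The 3 P15 libraries of the same batch are given beside the results as the next age.

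Granule cells are the principal neurons of the dentate gyrus. They receive the input of the entorhinal cortex on their dendrites and send mossy fibers, unmyelinated axons with large zinc-rich terminals, to the hilus and to CA3. In the mouse most of them are born around birth and in the early postnatal weeks, so that at these ages migration, neurite growth, synapse formation and continued division in the dentate niche overlap in time.

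Total counts per library were 15.9 M at P5 and 16.7 to 16.8 M at P10, at which 3 counts, a level that cannot be told from 0 by counting, equal 0.178 to 0.189 CPM (counts scaled to library size). The first principal component held 80.1% of the variance and separated the ages (-51.2 to -46.8 at P5, 45.0 to 52.3 at P10). Replicates varied more at P10 (chi-square per degree of freedom 10.8 to 21.2) than at P5 (3.70 to 6.18). P10 replicate 3 had low levels of spectrin genes and P10 replicate 2 low levels of a group of genes that includes Wfs1 and Gap43. Values without these libraries stand beside several of the results they touch. Xist, transcribed from the inactive X chromosome, measured 195, 143 and 52.5 CPM at P5 and 157, 7.14 and 0.0624 at P10, and the Y-linked gene Ddx3y 20.6, 20.8 and 36.2 and 0.314, 54.1 and 57.0 CPM. Every P5 library thus held RNA of both, P10 replicate 1 held Ddx3y near the level of 3 counts and P10 replicate 3 held Xist below it. The part of sex in the results was not tested, beyond leaving out each library in turn.

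Between P5 and P10, 8940 of the 14443 genes tested differed (61.9%, edgeR quasi-likelihood test, Benjamini-Hochberg adjusted p under 0.05). Of all genes tested, 4475 were higher (31.0%) and 4465 lower (30.9%) at P10. Large changes were more often losses: 1742 genes (12.1%) fell and 887 (6.14%) rose by at least 2-fold, 371 fell and 173 rose by at least 4-fold. The libraries of the ages did not overlap in 9841 genes (68.1%). The median absolute log2 change of the called genes was 0.631, and the median log2 change of all genes tested was -0.01. The split depends on the scaling. With total counts in place of trimmed-mean factors 36.9% of the called genes were higher (3323 of 9015) in place of 50.1%, and with the 4 genes above 1% of a library's counts left out of the totals as well 30.9% (2833 of 9173). These scalings moved the median of all genes to -0.15 and -0.21, so changes below are relative to the trimmed-mean scale. No gene called under it and under another setting changed sign.

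**Figure D1:**
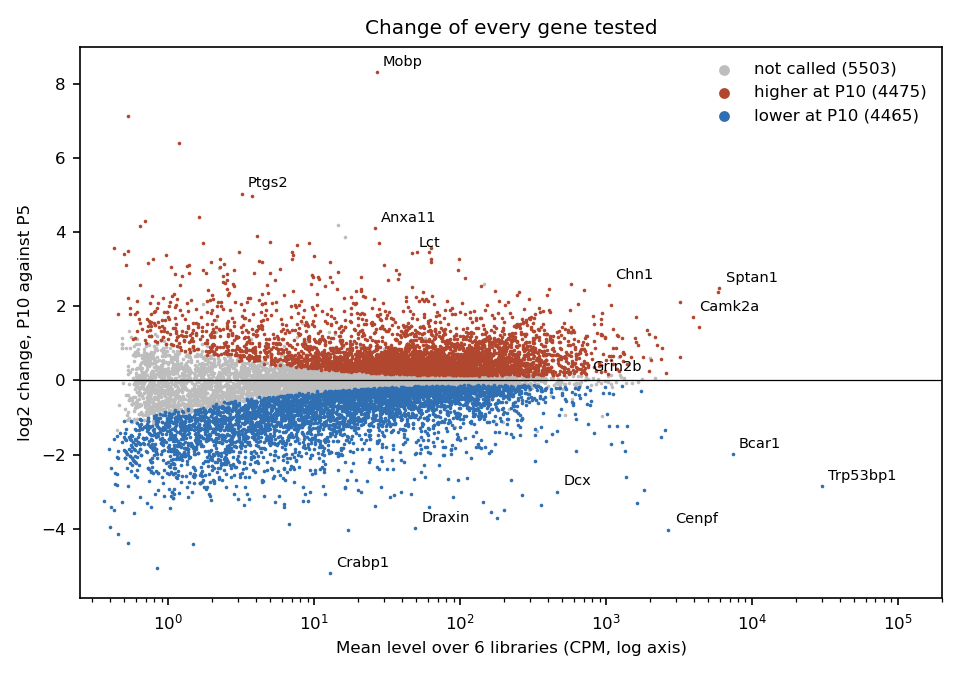
Log2 change from P5 to P10 of each of the 14443 genes tested (vertical axis) against its mean level over the 6 libraries in CPM (horizontal axis, logarithmic). Red points rose (4475), blue points fell (4465) and grey points were not called; more points lie beyond 2-fold below 0 (1742) than above it (887).

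Levels of 9 granule cell markers were read in each library. Prox1, the transcription factor that gives dentate granule cells their identity, measured 573, 594 and 538 CPM at P5 and 555, 681 and 609.9 at P10. The calcium buffer gene Calb1 measured 646, 651 and 621 and 626, 779.7 and 693 CPM. Both ranges overlapped, and the changes of 0.11 (SE 0.07) and 0.13 (SE 0.07) did not pass the test (adjusted p = 0.18 and 0.13), although without P10 replicate 1 both did (0.19 for Prox1, 0.21 for Calb1). C1ql3, a secreted organizer of mossy fiber synapses, likewise overlapped (191, 203 and 207 and 199, 234 and 224 CPM). None of the 9 was near 0 in any library. RNA of the whole hippocampus could show this too, so enrichment for granule cells was not tested. Of the 9, Slc30a3, Lct, Trpc6 and C1ql2 rose and Neurod1 fell, as given below. Rbp4, whose regulatory sequence drives the Cre, was low at both ages (8.56, 11.0 and 9.55 and 15.3, 8.33 and 16.9 CPM) and rose in the test only without P10 replicate 2 (0.73, adjusted p = 9.01e-05) and with DESeq2 (0.48). Rpl22, the gene that is tagged, fell from 137, 127 and 136 to 95.8, 101 and 97.5 CPM (log2 change -0.44, SE 0.06).

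Effector genes of mature granule cells rose while Prox1 did not change beyond its error. Of 19 effectors tested 17 rose and none fell, 13 of them by at least 2-fold, and of 8 transcription factors 2 rose and 3 fell. Of all genes tested 31.0% rose and 30.9% fell, the background for this and the following groups. Slc30a3, the transporter that loads zinc into mossy fiber vesicles, measured 46.2, 42.4 and 40.8 CPM at P5 and 149.7, 162 and 152 at P10 (1.84, SE 0.07, adjusted p = 5.8e-11). It lies on chromosome 5 from 31086106 to 31108237 on the minus strand of the mm10 assembly. Lct, which encodes lactase and marks granule cells among hippocampal neurons, rose further, from 7.67, 7.58 and 8.35 to 79.3, 96.2 and 81.5 CPM (3.44, SE 0.10). The cation channel gene Trpc6 went from 4.13, 4.63 and 4.33 to 24.0, 26.1 and 22.8 CPM and the synaptic organizer gene C1ql2 from 69.7, 71.1 and 60.9 to 274, 340.4 and 284. In each of these 4 genes every P10 library lay above every P5 library by more than 2-fold. The repressor gene Bcl6 measured 33.7 ± 2.63 CPM at P5 and 101 ± 8.06 at P10 (mean ± SD, n = 3, as in all such pairs), a rise of 1.59 (SE 0.08). Klf7, a factor of axon outgrowth, fell (-1.02, SE 0.08), as did Zbtb20 (-0.45, SE 0.08). Rfx3 fell by 0.20 with overlapping libraries (374, 402 and 371 against 297, 371 and 329 CPM), a call that any of 5 single libraries ended when left out.

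The single largest shift in the RNA that came down with the anti-HA beads was that of Trp53bp1, which encodes a DNA damage response protein. It took 5.95, 5.42 and 5.18% of all counts in the P5 libraries and 0.67, 0.771 and 0.645% in those of P10. Its level fell from 52685 ± 3712 to 7297 ± 736 CPM (-2.85, SE 0.08, adjusted p = 2.1e-11). It lies on chromosome 2 from 121193281 to 121271407 on the minus strand. Bcar1 and Efs, members of the same family of adaptor proteins at focal adhesions, fell with it: Bcar1 from 11743 ± 1537 to 2946 ± 333 CPM and Efs from 3233 ± 477 to 416 ± 60.9. So did Cenpf, a kinetochore protein gene (5029 ± 426 to 309.7 ± 39.8 CPM), and the basement membrane laminin gene Lama4 (2957 ± 218 to 297 ± 38.7). In all 5 the libraries of the ages were far apart. No pull-down without Cre and no input RNA was analysed here, so whether the RNA of these genes, or of the spectrin genes at P10, came down with tagged ribosomes or otherwise was not tested. The other 5 of the 10 largest losses were genes of the growing neurite, the tubulin genes Tuba1a and Tubb2b, the microtubule-associated Map1b and Mapt, and Dpysl3.

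Among the largest gains were Sptan1 and Sptbn1, spectrin genes, which encode the lattice under the neuronal membrane. Sptan1 measured 1801, 1638 and 2008 CPM at P5 and 11904, 12878 and 5629 at P10, and Sptbn1 2316, 2057 and 2601 and 7227, 7730.3 and 4005. P10 replicate 3 was the lowest P10 library in both, yet above every P5 library. The log2 changes were 2.48 (SE 0.38) and 1.44 (SE 0.30), and 2.78 and 1.70 without that library. The call of Sptbn1 (adjusted p = 0.0146) was lost without P5 replicate 1 (0.0525) or P5 replicate 2 (0.0501) and with the replicate block (1.40, adjusted p = 0.0836). Further large gains were those of Camk2a, Ppp3ca and Nrgn of postsynaptic calcium signaling, the glycolytic gene Aldoa, Ncdn (1194 ± 20.5 to 5173 ± 349 CPM), Ndrg4 (1063 ± 16.6 to 2739 ± 177) and Chn1, a Rac GTPase-activating protein gene (302 ± 7.13 to 1786 ± 169).

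**Figure D2:**
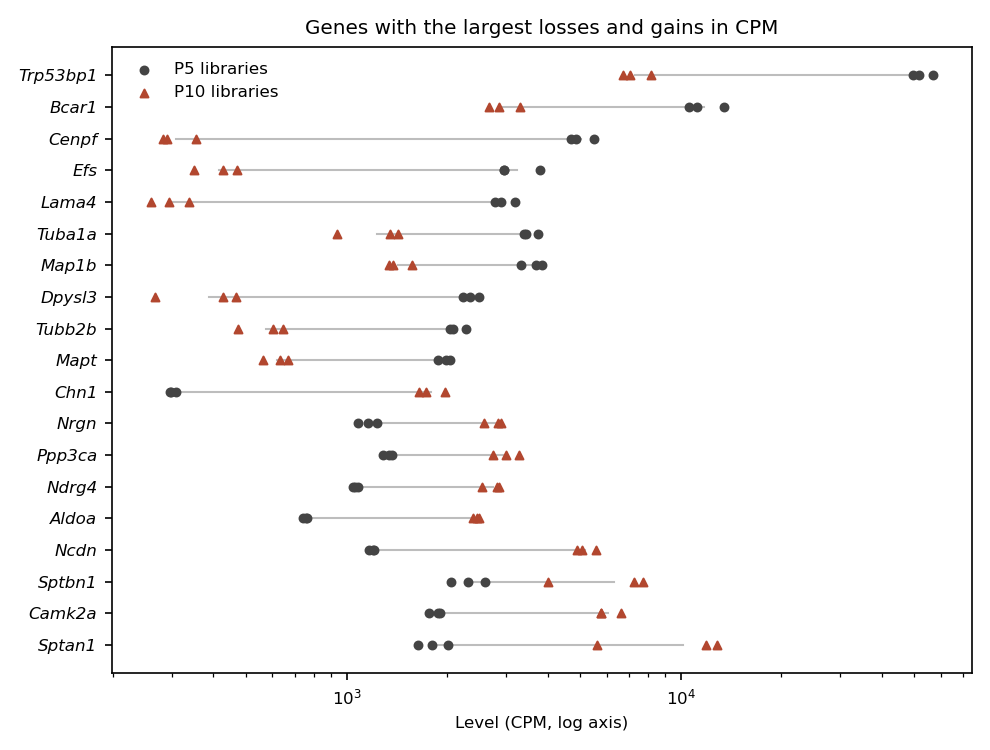
Level in CPM (logarithmic axis) of genes with the largest losses and gains in mean CPM, with each P5 library as a grey circle, each P10 library as a red triangle and a line between the means. The ages do not overlap in any gene shown, and P10 replicate 3 lies to the left of the other P10 libraries in Sptan1 and Sptbn1.

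Genes of immature neurons fell as a group. Of the 43 tested, 32 fell, 25 of them by at least 2-fold, and 5 rose, with a median log2 change of -1.20 beside -0.01 for all genes tested. Dcx, a microtubule-associated protein of migrating neurons, measured 801, 845 and 820.3 CPM at P5 and 105, 94.8 and 109 at P10 (7.98-fold lower, SE of the log2 change 0.06, adjusted p = 1.6e-12), and lies on chromosome X from 143855842 to 143933311 on the minus strand. Sox11, a transcription factor of newborn neurons, measured 178, 177 and 168 and 48.0, 45.9 and 43.9 CPM (-1.92, SE 0.06). Draxin, a secreted guidance protein, measured 92.0, 91.7 and 93.9 and 6.53, 5.88 and 5.18 CPM (-3.98, SE 0.09). In these 3 genes the lowest P5 library was at least 3-fold above the highest P10 library. Mex3a, an RNA-binding protein gene of progenitors and young neurons, was 8.02-fold lower, and Igfbpl1 fell by 2.48 on the log2 scale (SE 0.10). The polysialyltransferase gene St8sia2, whose product coats NCAM in migrating cells, went from 111 ± 4.84 to 10.5 ± 2.46 CPM. Neurod1, a factor of granule cell differentiation, fell by 1.03 (SE 0.07).

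The 5 that rose were Trim9 (1.02), Neurod2 (0.96), Prdm8 (0.92), Dclk1 (0.67) and Gpm6a (0.64). Trim9, a ubiquitin ligase at the netrin receptor, went from 211 ± 3.11 to 428 ± 5.35 CPM, while its close relative Trim67 went from 368 ± 16.5 to 32.9 ± 6.43. Neurod2, a factor of excitatory neurons, went from 183 ± 8.11 to 357 ± 27.9 CPM. Gap43, the growth cone protein gene, measured 592, 676 and 789 CPM at P5 and 457, 146 and 485 at P10. Its ages did not overlap, P10 replicate 2 was far below the other P10 libraries, and the change of -0.92 (SE 0.52) did not pass the test (adjusted p = 0.2), while without that library it was -0.54 and passed (0.018). Tubb3 showed the same low library (749.6, 379 and 739.8 CPM at P10) and passed with it (-1.23, SE 0.31, adjusted p = 0.026) and without it (-0.97, adjusted p = 6.95e-12).

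**Figure D3:**
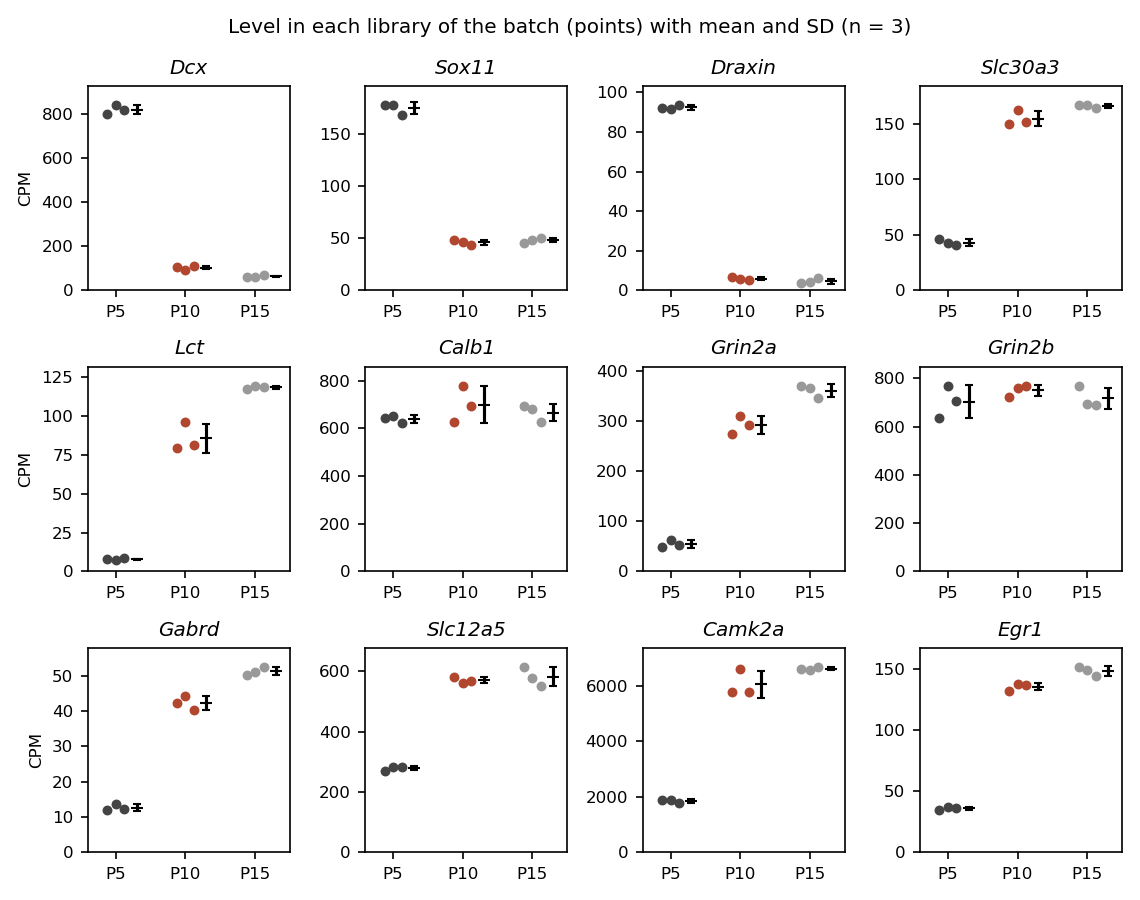
Level in CPM of 12 genes in each library of the batch at P5, P10 and P15 (points), with the mean and SD of the 3 libraries of an age beside them (bars); every vertical axis starts at 0. Dcx, Sox11 and Draxin drop and Slc30a3, Lct, Grin2a, Gabrd, Slc12a5, Camk2a and Egr1 climb between P5 and P10, with smaller steps to P15, while Calb1 and Grin2b overlap between P5 and P10.

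Genes of cell division fell as well. Of 52 tested, 41 fell and 4 rose (median -1.23), and the 21 genes of mitosis fell without exception, each by at least 2-fold (median -2.09, from -4.02 to -1.14). The value of -4.02 is that of Cenpf, whose level at P5 (5029 ± 426 CPM) carries the limit given above. In bulk RNA fewer cells of a type and less RNA per cell cannot be told apart. Mki67, the proliferation marker, measured 77.0, 52.5 and 58.5 CPM at P5 and 6.97, 9.64 and 5.43 at P10 (-3.09, SE 0.25). Top2a, the topoisomerase of mitotic chromosomes, measured 19.7, 15.1 and 16.7 and 2.83, 4.13 and 2.25 CPM (-2.48, SE 0.19). At P10 both were below 10 CPM in every library. Rrm2, which supplies nucleotides for replication, fell by 1.86 (SE 0.15), and 11 of 15 replication genes fell. Mcm6 (19.2 ± 1.39 to 34.6 ± 6.54 CPM), Ccne1 (7.88 ± 0.492 to 19.7 ± 3.72), E2f3 and Pcna rose. Pcna moved by 0.19 only, and its call was lost without any 1 of the 5 libraries other than P10 replicate 3. Of 23 genes of neural stem cells and progenitors 20 fell and 1 rose (median -1.26). Fabp7, the fatty acid binding protein of radial glia, went from 161 ± 13.1 to 18.2 ± 3.04 CPM, Tnc from 81.9 ± 9.09 to 9.75 ± 2.15 and Vim from 46.3 ± 3.64 to 8.93 ± 1.07. Hes1, a Notch target, rose from 2.42 ± 0.512 to 4.36 ± 0.744 CPM.

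Because the mitotic genes moved together, the stretch before their start site was read from RefSeq promoters of GRCm38.p6. Mitotic genes are known for CCAAT boxes bound by NF-Y and for a cell cycle homology region (CHR), here TTTGAA. Windows of 250 bases before the start were at hand for 11200 of the 14443 genes tested (77.5%) and for 18 of the 21 mitosis genes, and each motif was searched on both strands. CCAAT was found in 83.3% of these 18 windows and in 36.3% of all windows, and TTTGAA in 38.9% and 10.1%. Among genes that fell by at least 2-fold the shares were 34.9% and 12.0%, near those of all windows. Of 13 windows of replication genes 69.2% held CCAAT and 30.8% an E2F motif (TTTNGCGC or TTTCCCGC), which 3.57% of all windows held. The 100 bases before the start of Top2a and of 3 further mitosis genes, chosen for their matches, are shown 5′ to 3′ on the strand of the gene, with CCAAT and TTTGAA or their reverse complements ATTGG and TTCAAA in capitals. A match is a description of the sequence and not a bound site.
Top2a (GRCm38.p6 chr11:99024190-99024289, minus strand): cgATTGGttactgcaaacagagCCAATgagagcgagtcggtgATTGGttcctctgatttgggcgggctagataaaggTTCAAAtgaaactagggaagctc
Cdk1 (GRCm38.p6 chr10:69352913-69353012, minus strand): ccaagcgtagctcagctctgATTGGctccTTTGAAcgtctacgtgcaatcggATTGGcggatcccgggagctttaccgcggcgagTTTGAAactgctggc
Ccnb2 (GRCm38.p6 chr9:70421555-70421654, minus strand): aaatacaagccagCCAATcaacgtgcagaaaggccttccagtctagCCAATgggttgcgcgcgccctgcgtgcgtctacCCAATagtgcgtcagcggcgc
Ube2c (GRCm38.p6 chr2:164769829-164769928, plus strand): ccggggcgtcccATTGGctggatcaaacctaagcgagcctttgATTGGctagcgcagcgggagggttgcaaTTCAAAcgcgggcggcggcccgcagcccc

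Cdk1, the kinase that starts mitosis, went from 4.60 ± 0.663 to 0.751 ± 0.287 CPM, and Ccnb2, a cyclin partner of it, from 3.22 ± 0.766 to 0.773 ± 0.346. Ube2c, which charges ubiquitin for the anaphase-promoting complex, went from 3.36 ± 1.04 to 0.501 ± 0.315 CPM.

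Axon guidance genes fell in 53 of 89 cases and rose in 21 (median -0.50). The netrin receptor gene Dcc measured 121, 117 and 115 CPM at P5 and 38.7, 28.9 and 34.6 at P10 (-1.79, SE 0.09). The Slit receptor gene Robo1 fell (-1.84, SE 0.10), as did the semaphorin coreceptor gene Nrp2 (-1.51, SE 0.07) and its partner Plxna3 (-1.66, SE 0.08). Of the ligands, 22 of 36 fell and 7 rose, and Sema4g went from 142 ± 5.42 to 40.5 ± 4.24 CPM. Among those that rose were Slit1 (93.7, 107 and 98.9 to 218, 239 and 209.7 CPM), the actin-oxidizing enzyme gene Mical2 (1.16, SE 0.06) and Rtn4r, the Nogo receptor gene that restrains axon growth (60.5 ± 1.30 to 131 ± 5.20 CPM). Intracellular effectors fell in 13 of 19 cases, among them Crmp1 (1653 ± 29.5 to 712 ± 52.5 CPM).

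Synaptic adhesion genes were less uniform, with 45 of 103 lower and 24 higher (median -0.18). Neurexins, neuroligins and leucine-rich repeat proteins were balanced (10 higher and 10 lower of 29), and of 35 immunoglobulin proteins 18 fell and 9 rose. Cntn2, an axonal contactin, went from 138 ± 9.42 to 35.0 ± 3.63 CPM and Cdh4 from 44.1 ± 0.518 to 15.6 ± 1.93, while Nectin3 fell by 1.48 (SE 0.09). Cntnap1, which anchors axon and glia beside nodes of Ranvier, rose from 21.7, 23.8 and 18.9 to 173, 181 and 158 CPM (2.99, SE 0.08). Gpr158, a receptor at mossy fiber synapses, rose by 1.68 (SE 0.07) and Lrrc4, a netrin-G ligand of dendrites, by 1.08 (SE 0.06). With total counts the list stood at 55 lower and 15 higher.

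Genes of the postsynaptic density rose almost without exception. Of 51 tested 48 rose, 25 of them by at least 2-fold, and none fell (median 1.02). Camk2a, the kinase of synaptic plasticity, measured 1877, 1899 and 1768 CPM at P5 and 5756, 6606 and 5769 at P10 (1.71, SE 0.07, adjusted p = 1.1e-10). The scaffold gene Dlg4, which encodes PSD-95, measured 818, 817 and 831 and 1505, 1552 and 1499 CPM (0.89, SE 0.05). The libraries of an age were within 15% of one another for Camk2a and closer still for Dlg4, and the ages were well apart. Among kinases and phosphatases, Ptk2b rose by 2.06 (SE 0.07) and the calcineurin subunit gene Ppp3r1 by 1.75 (SE 0.06). Nrgn, which holds calmodulin in spines, went from 1159 ± 77.6 to 2776 ± 167 CPM, and Rgs14, a signaling regulator, from 17.2 ± 2.17 to 82.0 ± 2.08. Dlg4 lies on chromosome 11 from 70016942 to 70047522 on the plus strand.

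Glutamate receptor genes moved in both directions, 18 higher and 10 lower of 36 tested (median 0.17). The NMDA receptor subunit gene Grin2a measured 48.9, 63.4 and 52.0 CPM at P5 and 275, 311 and 291 at P10 (2.42, SE 0.09, adjusted p = 6.3e-09), and lies on chromosome 16 from 9567898 to 9995560 on the minus strand. Grin2b, the subunit that prevails early in development, measured 636, 769.5 and 705 and 723, 761 and 766 CPM. The Grin2a libraries of the ages were more than 4-fold apart, and those of Grin2b overlapped (0.09, SE 0.07, adjusted p = 0.24). Grin1, the obligate subunit, rose by 0.78 (SE 0.05), and Grin2d and Grin3a, subunits of young neurons, fell (-1.16, SE 0.10, and -1.29, SE 0.15). The AMPA receptor genes Gria1, Gria2 and Gria3 rose by 0.46, 0.59 and 0.86, and Gria4 overlapped between ages (-0.10, adjusted p = 0.38). Of the 12 auxiliary subunits 8 rose and 2 fell. Cacng3 went from 31.3 ± 1.97 to 105 ± 9.05 CPM, and its relative Cacng4 in the opposite direction from 118 ± 9.12 to 24.2 ± 2.57. Of the kainate receptor genes 4 of 7 fell, and Grm2, the autoreceptor of mossy fiber terminals, rose from 95.6, 101 and 94.4 to 335, 362 and 336 CPM. The balance of the list was 13 higher and 12 lower with total counts.

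Of 31 genes of inhibitory transmission 16 rose and 8 fell (median 0.16), and 11 rose and 9 fell with total counts. Gabrd, the subunit of extrasynaptic GABA-A receptors, measured 11.9, 13.8 and 12.3 CPM at P5 and 42.3, 44.2 and 40.3 at P10 (1.74, SE 0.09). Its partner Gabra4 rose by 1.28 (SE 0.06). Gabra2 overlapped between ages (67.0 ± 2.57 and 72.6 ± 3.33 CPM), and Gabra5 moved by -0.14 (SE 0.05), a call lost without any 1 of 5 of the 6 libraries. Slc12a5, the chloride exporter KCC2 that makes GABA inhibitory, measured 271, 285 and 284 and 582, 563 and 569.9 CPM (1.03, SE 0.05). Slc12a2, the chloride importer NKCC1, measured 25.8, 28.6 and 25.8 and 19.8, 20.8 and 23.9 CPM (-0.31, SE 0.09, adjusted p = 0.011). The exporter was about 2-fold higher at P10, and the importer fell by a small amount whose call was lost without P5 replicate 2 or P10 replicate 1. The regulatory kinase genes Wnk1 (-0.42) and Wnk3 (-0.56) fell, and of 6 genes of clustering at inhibitory synapses 5 rose and none fell.

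Presynaptic genes numbered 71, of which 52 were higher and 8 lower at P10 (median 0.61). SNAREs and fusion regulators rose in 12 of 14 cases with none lower, and Vamp1 went from 10.2 ± 0.312 to 39.9 ± 3.66 CPM. The vesicular glutamate transporter gene Slc17a7 measured 601, 641 and 611 CPM at P5 and 1638, 1636 and 1581 at P10 (1.39, SE 0.05), while Slc17a6, used by younger neurons, overlapped (46.4, 43.5 and 46.6 and 52.8, 26.7 and 45.1 CPM, adjusted p = 0.7). Nptx1, a secreted pentraxin that gathers AMPA receptors, rose by 1.87 (SE 0.07), and the calcium sensor genes Syt13 and Syt7 by 2.13 (SE 0.07) and 1.33 (SE 0.06). Those that fell include the active zone genes Unc13b (251 ± 35.9 to 64.7 ± 1.28 CPM) and Rims3 (102 ± 5.59 to 30.2 ± 3.06), the sensor gene Syt6 and the endocytic gene Dnm3. Of the 18 active zone genes 13 rose, and Unc13b and Rims3 were the 2 that fell.

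Of 61 genes of peptides, growth factors and their receptors 26 rose and 18 fell (median 0.14), 22 and 21 with total counts. Peptides and their processing enzymes rose in 12 of 19 cases, among them the convertase gene Pcsk2 (1.19, SE 0.06) and the granin gene Scg2 (108 ± 3.88 to 223 ± 14.1 CPM). Bdnf, the neurotrophin stored in mossy fibers, measured 67.0, 66.5 and 64.2 CPM at P5 and 120.1, 128 and 125 at P10 (0.92, SE 0.06). The receptors fell in 9 of 17 cases and rose in 3, with Fgfr1 (-1.08), Fgfr2 (-1.12), Igf1r (-1.09) and Tgfbr1 (-0.94) lower. Ntrk2, the receptor of BDNF, moved by 0.12 (adjusted p = 0.048), and its direction turned with total counts (-0.01). Sort1, which sorts neurotrophins and their receptors, rose by 1.09 (SE 0.06).

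Among 50 activity-regulated genes 34 were higher and 5 lower at P10 (median 0.61). Egr1, an immediate early transcription factor, measured 34.9, 36.8 and 36.6 CPM at P5 and 132, 137 and 136 at P10 (1.90, SE 0.06, adjusted p = 2.1e-11). Fos, the classical marker of recent firing, measured 2.16, 3.97 and 2.82 and 14.4, 11.1 and 13.9 CPM (2.13, SE 0.20). Arc, a regulator of AMPA receptor trafficking, measured 12.3, 11.6 and 10.6 and 50.2, 43.3 and 39.1 CPM (1.94, SE 0.11). None of the 3 overlapped between ages, and Fos and Arc varied more among replicates than Egr1. Ptgs2, the inducible cyclooxygenase, had the largest fold change of the list, measuring 0.0599, 0.120 and 0.360 CPM at P5, under or near the level of 3 counts, and 6.91, 6.89 and 4.74 at P10. Dusp14 rose by 1.87 (SE 0.08), Mef2d by 1.23 (SE 0.05) and Egr3 by 1.11 (SE 0.06). Nr4a3 (-1.11), Klf4 (-1.09), Sik1 (-0.83), Dusp4 (-0.75) and Trib1 (-0.43) fell. Klf4 overlapped between ages and lost its call without any 1 of 4 libraries, and Trib1 without any 1 of 3.

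Many genes of this kind answer to CREB through a cyclic AMP response element (CRE), TGACGTCA. Of the 39 members with a window 12.8% held it on either strand within 250 bases before the start, against 2.79% of all windows, and 59.0% against 26.8% held its core TGACG, a motif contained in it. The holders of the full element were Arl4d, Dusp1, Pcsk1, Plk2 and Scg2. The SRF box, a motif of the transcription factor SRF, was searched too and was not more frequent. It was held by 2.56% of the 39 windows and by 2.56% of all windows. Among all genes that rose by at least 2-fold the share with the full CRE was 1.99%. The 80 bases before the start of Scg2 and Arl4d, chosen for their matches, are shown 5′ to 3′ on the strand of the gene with the element in capitals.
Scg2 (GRCm38.p6 chr1:79440027-79440106, minus strand): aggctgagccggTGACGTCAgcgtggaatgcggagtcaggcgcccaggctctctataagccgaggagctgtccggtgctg
Arl4d (GRCm38.p6 chr11:101665461-101665540, plus strand): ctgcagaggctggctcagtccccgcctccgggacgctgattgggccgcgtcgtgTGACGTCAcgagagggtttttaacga

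Scg2 rose from 109, 104 and 112 to 220.4, 238 and 209.8 CPM (1.04, SE 0.06) and Arl4d, a small GTPase gene, from 3.17, 2.47 and 3.54 to 11.1, 15.5 and 11.3 CPM (2.04, SE 0.19). Of the other holders Plk2 rose by 0.18 (SE 0.06), and Pcsk1 (0.15, adjusted p = 0.28) and Dusp1 (0.20, adjusted p = 0.3) did not pass the test.

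Of 81 voltage-gated channel genes 53 were higher and 16 lower at P10 (median 0.45). Sodium channel genes rose in 7 of 8 cases. Scn2b, an auxiliary subunit, rose by 2.55 (SE 0.09), and Scn8a, the channel of the mature axon initial segment, went from 149 ± 10.8 to 285 ± 2.92 CPM, while Scn3a, the embryonic channel, fell from 80.2 ± 7.90 to 60.4 ± 5.40. The potassium channel genes rose in 36 of 53 cases, among them the GIRK subunit gene Kcnj9 (1.81, SE 0.07), Kcnip4 (1.29) and Kcnc4 (1.20), and Kcnip1 (-1.06) and Kcna6 (-0.67) fell. Hcn3 fell from 42.5, 44.9 and 42.7 to 17.0, 13.1 and 16.9 CPM, and the T-type calcium channel gene Cacna1g changed by -0.66 (SE 0.07). Of 35 genes of ion pumps and calcium buffers 26 rose and 4 fell (median 0.64). Hpca, a calcium sensor of hippocampal neurons, went from 238 ± 11.2 to 889 ± 72.5 CPM and Cabp7 from 19.5 ± 0.660 to 85.4 ± 5.48, and the calcium extruders Slc8a2 (1.22) and Atp2b2 (1.12) rose. Slc8a1, a related exchanger, fell (-0.87, SE 0.12), as did Calb2, Ryr3 and Ryr1, the last with overlapping libraries and without a call when P5 replicate 2 or P10 replicate 3 was left out.

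The respiratory chain genes encoded in the nucleus moved within a narrow band. Of the 78 tested 73 rose and none fell (median 0.54, from -0.24 to 1.07), and 1 rose by 2-fold or more. Cox8a measured 114, 109 and 125 CPM at P5 and 253, 237 and 240.2 at P10, and Sdha, a subunit of succinate dehydrogenase, 221, 219.9 and 221 and 367, 361 and 364. Replicates of Sdha agreed within 2% at either age, and its change was 0.72 (SE 0.05). The median of 0.54 for the list compares with a median of 1.02 for the postsynaptic density genes. All 25 genes of complexes II to IV and cytochrome c rose. With total counts 70 rose and none fell, and 1 fell with the most abundant genes left out of the totals. Of 7 mitochondrially encoded genes tested mt-Nd2 and mt-Nd6 rose and mt-Co1 and mt-Nd1 fell, and 5 others (mt-Nd4l, mt-Co2, mt-Co3, mt-Atp6 and mt-Atp8) were at 0 in all 6 libraries, so counts of this class are uncertain. mt-Nd6 overlapped between ages, and mt-Nd2 lost its call without any 1 of 4 libraries. Glycolysis genes rose in 17 of 25 cases, with Aldoa from 753 ± 12.1 to 2446 ± 49.0 CPM and Eno2, the neuronal enolase, from 263 ± 10.4 to 764 ± 7.19. Hk2, the hexokinase of growing cells, and the lactate carrier gene Slc16a1 fell (-1.17 and -0.54).

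Cholesterol synthesis went the other way. Of 32 genes 24 fell and 3 rose (median -0.70), and of the 22 enzymes 18 fell. Cyp51, the lanosterol demethylase, measured 129, 126 and 132 CPM at P5 and 49.1, 51.6 and 58.9 at P10 (-1.27, SE 0.07, adjusted p = 2.5e-09). Hmgcs1, at the entry of the pathway, measured 589, 632 and 651 and 339, 241 and 397 CPM (-0.94, SE 0.20). P10 replicate 2 was the lowest library of Hmgcs1, and the ages did not overlap in either gene. Cyp46a1, which turns cholesterol into the form that leaves the brain, rose from 62.7, 61.0 and 64.5 to 199, 189 and 197 CPM (1.64, SE 0.06), and the sterol isomerase gene Ebp and the regulator gene Insig2 also rose (1.37 and 0.63). Enzymes of this pathway are known targets of SREBP, which acts at sterol regulatory elements together with NF-Y at CCAAT. Of 17 enzyme windows 88.2% held CCAAT, against 36.3% of all windows, and 1 held the sterol element TCACNCCAC (5.88%, against 0.938%). That window is the one of Hmgcs1. The 150 bases before the start of Hmgcs1 and Cyp51 are shown 5′ to 3′ on the strand of the gene, with CCAAT, its reverse complement ATTGG and the sterol element in capitals.
Hmgcs1 (GRCm38.p6 chr13:119690201-119690350, plus strand): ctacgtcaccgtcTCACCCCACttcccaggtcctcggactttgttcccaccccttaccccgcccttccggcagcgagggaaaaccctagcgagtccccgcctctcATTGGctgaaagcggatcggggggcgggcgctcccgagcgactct
Cyp51 (GRCm38.p6 chr5:4104698-4104847, minus strand): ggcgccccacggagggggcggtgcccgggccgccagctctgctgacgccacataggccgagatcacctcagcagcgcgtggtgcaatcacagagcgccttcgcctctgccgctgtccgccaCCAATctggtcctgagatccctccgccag

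Of 32 genes of steroid and thyroid hormone signaling 18 rose and 6 fell (median 0.44). Klf9, a target of both glucocorticoid and thyroid hormone, measured 99.8, 109 and 106 CPM at P5 and 454, 520.3 and 474 at P10 (2.20, SE 0.06, adjusted p = 1.4e-11), and lies on chromosome 19 from 23141226 to 23168134 on the plus strand. The glucocorticoid receptor gene Nr3c1 rose by 1.55 (SE 0.08), Fkbp5, a chaperone induced by it, by 0.88 (SE 0.07), and Hr, a thyroid hormone target, by 1.00 (SE 0.10). The thyroid hormone receptor gene Thra did not change beyond its error (1666 ± 58.5 and 1615 ± 69.4 CPM). Of the retinoid genes Crabp1, a retinoic acid binding protein, fell from 27.1, 22.5 and 24.9 to 0.691, 0.438 and 0.874 CPM, the lowest log2 change of any gene tested (-5.20, SE 0.19), and Rarg fell as well (-0.79). Pdk4 (-0.78) and Rara (-0.36) fell, Pdk4 with a call lost without any 1 of 5 libraries.

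Regulators of chromatin and RNA were balanced. Of 49 chromatin genes 13 rose and 14 fell (median 0.00), and 22 fell and 11 rose with total counts. Uhrf1, which keeps DNA methylation through replication, went from 6.42 ± 0.792 to 0.688 ± 0.224 CPM and its partner Dnmt1 from 80.7 ± 3.37 to 52.4 ± 1.48. Ezh2, the methyltransferase of Polycomb, fell by 1.75 (SE 0.18) and the remodeler gene Chd7 likewise (-1.41, SE 0.12), while Smarcd1 (0.66) and the linker histone gene H1f0 (0.58) rose. Of 39 RNA-binding proteins 14 rose and 13 fell. Rbfox1, a splicing factor of mature neurons, measured 157, 173 and 153 CPM at P5 and 456, 502 and 465 at P10 (1.56, SE 0.06), and Rbfox3 and Mbnl2 rose by 0.83 (SE 0.05) and 1.40 (SE 0.06). Rbfox2 went the other way (-0.41, SE 0.05). Ptbp1, a splicing repressor of progenitors, fell from 29.8 ± 5.48 to 14.5 ± 2.01 CPM and Igf2bp2, an RNA-binding protein of fetal tissue, from 6.07 ± 1.48 to 2.13 ± 0.387.

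Within the cytoskeleton the subgroups moved apart. Tubulins and their associated proteins fell in 13 of 25 cases and rose in 5, and neurofilaments and spectrins rose in 10 of 14 with none lower. Nefl, the light neurofilament subunit, measured 440.5, 438 and 447 CPM at P5 and 1487, 1299 and 1385 at P10 (1.65, SE 0.06), and Nefh, the heavy one, 7.01, 9.09 and 9.31 and 67.7, 51.5 and 48.0. Every P10 library exceeded every P5 library in both. Map1b, a microtubule protein of growing axons, fell from 3615 ± 259.9 to 1428 ± 126 CPM while Map1a, its relative in mature dendrites, rose from 382 ± 13.2 to 825 ± 23.1. Tuba4a rose by 1.33 (SE 0.06), and Tuba1a fell by 1.51 (SE 0.18). The dynein heavy chain gene Dync1h1 fell from 666 ± 65.4 to 258 ± 10.6 CPM. The whole list stood at 26 higher and 19 lower, and at 22 and 27 with total counts.

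**Figure D4:**
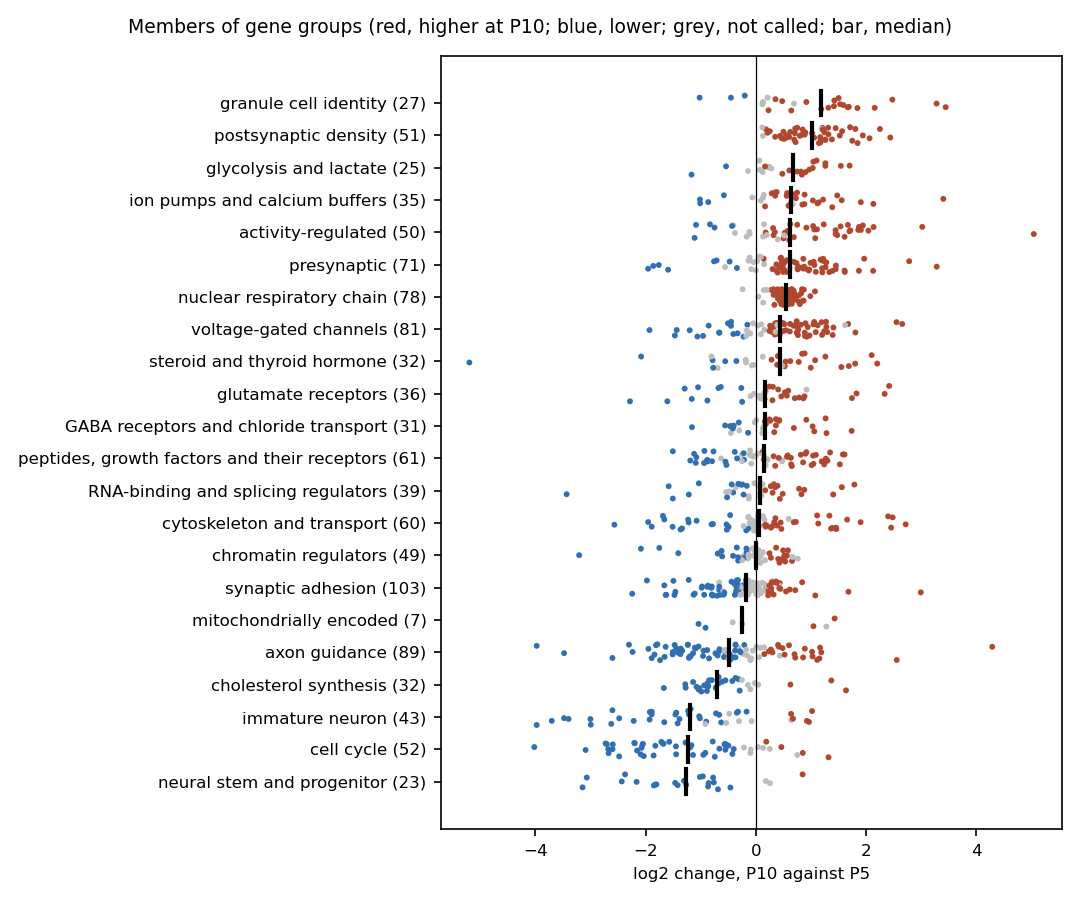
Log2 change from P5 to P10 of the members tested of each gene group (points; the number tested in parentheses), ordered by the median (black bar). Red points rose, blue points fell and grey points were not called; stem cell, cell cycle and immature neuron genes lie to the left, granule cell identity and postsynaptic density genes to the right, and the respiratory chain genes form a narrow cluster.

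The genes with the highest and lowest fold changes were taken from those called, at 5 CPM or more at 1 of the ages and without overlap, so their separation is no further support. Among the 15 highest, Anxa11, an annexin that carries RNA granules on lysosomes, went from 2.40, 3.13 and 2.94 CPM at P5 to 44.3, 54.1 and 48.7 at P10 (4.12, SE 0.12). Ankrd33b rose by 3.72 (SE 0.10) and Glp2r, the receptor of glucagon-like peptide 2, by 3.71 (SE 0.18). Hlf, a PAR bZIP transcription factor, went from 9.10, 11.4 and 9.85 to 136, 88.9 and 110.3 CPM and Il33, an interleukin gene, from 1.16 ± 0.393 to 12.9 ± 1.04. Lct, Ptgs2, Tnnt2, Slc26a10, Krt2 and Mylk3 were also among them, with log2 changes of 3.44 to 5.04. Mobp, Mag and Gsn belonged to them as well. Mobp measured 0.180, 0 and 0.300 CPM at P5, at or under about the level of 3 counts in 2 libraries, and 58.0, 72.4 and 30.1 at P10, and Gsn, an actin-severing protein, 11.4, 8.12 and 10.0 and 130.1, 175 and 45.8. P10 replicate 3 was the lowest P10 library of Mobp, Mag and Gsn, and without it the change of Gsn was 3.96 in place of 3.56.

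Among the 15 lowest were 4 genes of basement membrane and matrix, Col4a1, Col4a5, Col2a1 and Lama4, with the tenascin gene Tnxb. Col4a1, a collagen of vessel walls and meninges, went from 790.5, 584 and 591 to 87.7, 62.5 and 41.6 CPM (-3.36, SE 0.35). Tnxb went from 298 ± 45.4 to 25.6 ± 3.75 CPM. Genes of the young neuron were Draxin, Cd24a (331 ± 49.6 to 25.4 ± 4.64 CPM), Trim67 and St8sia2. Crabp1, Cenpf, Mgam, Scube3, Sdc1 and B3gnt5 completed them, with log2 changes of -5.20 to -3.34.

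Markers of other cell types moved with age too, and their part in the results above was not tested. The 19 oligodendrocyte lineage genes tested summed to 259 to 351 CPM at P5 and 538 to 923 at P10, and split by stage: 9 of 10 genes of myelinating cells rose and 5 of 9 precursor genes fell. Mbp, a main protein of myelin, measured 87.4, 78.3 and 76.8 CPM at P5 and 441, 525 and 309.8 at P10 (2.39, SE 0.23), with P10 replicate 3 the lowest of its age (2.59 without it). Pdgfra, the receptor of precursors, went from 34.4 ± 6.43 to 13.6 ± 3.30 CPM and Cspg4 from 17.7 ± 2.59 to 5.90 ± 0.743. Meningeal fibroblast genes fell in 12 of 16 cases, and their sum was 1080 to 1330 CPM at P5 and 210 to 367 at P10. The collagen genes Col1a1 (214, 159.8 and 202 to 44.1, 30.0 and 19.3 CPM) and Col3a1 (310.0, 221 and 249 to 39.6, 24.2 and 17.4) were among those that fell. Of 18 endothelial and mural genes 13 fell and none rose (164 to 222 CPM in sum at P5, 88.4 to 103 at P10), and Cldn5, of the blood-brain barrier, fell by 1.56 (SE 0.15). Of 13 genes of choroid plexus, ependyma and blood 11 fell (281 to 461 and 139 to 189 CPM), among them the hemoglobin genes Hba-a1 and Hbb-bs, which share sequence with near copies.

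Cajal-Retzius genes fell in 10 of 12 cases (201 to 223 CPM in sum at P5, 98.5 to 165 at P10). Reln, the secreted guide of layer formation, measured 130.2, 121 and 123 CPM at P5 and 30.4, 28.2 and 35.2 at P10 (3.99-fold lower, SE of the log2 change 0.08). Car10 rose and varied widely (93.0, 29.7 and 74.5 CPM at P10, 9.77 ± 1.06 at P5), with a call that ended without P5 replicate 2 (adjusted p = 0.0513). Astrocyte genes were balanced, 6 higher and 6 lower of 18, and their sum was 1110 to 1220 CPM at P5 and 1370 to 1850 at P10. Slc1a2, the glutamate transporter gene, was among the 6 that rose (324, 343 and 329 to 886, 918 and 669 CPM). It made up a large part of the sum and of its rise. Aldh1l1, Mlc1, Sox9 and Slc7a10 were among the 6 that fell. Aqp4 overlapped between ages (34.8 ± 2.06 and 31.2 ± 6.72 CPM). Interneuron genes rose in 9 and fell in 12 of 25 cases (732 to 743 and 789 to 855 CPM), with the GABA synthesis gene Gad1 higher by 0.74 (SE 0.09) and the lineage factor gene Lhx6 lower (-1.17). Microglial genes stayed low (47.2 to 58.5 and 51.5 to 67.9 CPM), with 4 of 15 higher, 2 of them without a call when P5 replicate 3 was left out.

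Other hippocampal neurons were also represented. Of 22 CA pyramidal genes 7 rose and 4 fell, and their sum was 2290 to 2350 CPM at P5 and 2800, 2140 and 2680 at P10. Wfs1, a CA1 marker, measured 35.4, 43.6 and 44.6 CPM at P5 and 439, 43.2 and 273 at P10, so that P10 replicate 2 lay within the P5 range and the others far above it, and its change of 2.61 did not pass the test (SE 0.94, adjusted p = 0.072). Without P10 replicate 2 it was 3.12 and passed (adjusted p = 0.00299). Without P10 replicate 2, 10 CA pyramidal genes rose and 4 fell. Of 12 mossy cell genes 6 rose and 4 fell, and their sum was 321 to 340 CPM at P5 and 445 to 456 at P10. Gria3, counted above among the glutamate receptor genes too, was among those that rose (110 ± 5.85 to 199 ± 15.2 CPM). With total counts the balance of the last 2 lists was 6 higher and 6 lower and 4 and 4. No member of these 10 lists was at 0 in all 6 libraries, including those too low to be tested.

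**Figure D5:**
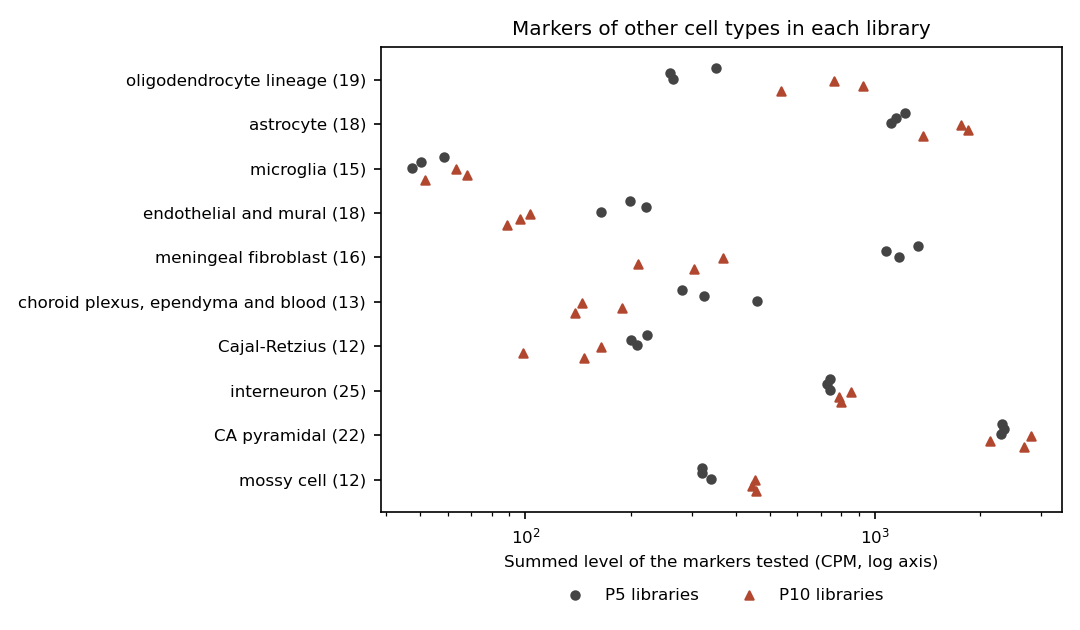
Summed level in CPM (logarithmic axis) of the markers tested for each of 10 other cell types (the number tested in parentheses), with P5 libraries as grey circles and P10 libraries as red triangles. Meningeal fibroblast, endothelial, choroid plexus and Cajal-Retzius sums are lower in every P10 library. Oligodendrocyte, astrocyte, interneuron and mossy cell sums are higher in every P10 library. Microglial sums overlap, and CA pyramidal sums overlap because of P10 replicate 2.

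The P15 libraries show how far the change went on. In a fit of the 9 libraries of the batch 9134 of 14722 genes (62.0%) differed between P5 and P10, and 552 (3.75%) between P10 and P15, 242 higher and 310 lower. The difference between the steps, a test added after the values were seen, passed for 5544 genes (37.7%), of which 5368 moved more in the first step and 176 in the second. The steps share the P10 libraries, so an error in a P10 level enters both with opposite sign, also in the test of their difference. For single genes the values of the steps are set side by side. Dcx, 7.98-fold lower at P10 than at P5, changed by a further -0.67 (log2) to 64.6 ± 2.89 CPM at P15 (adjusted p = 4.5e-05), and Lct by 3.44 and then 0.47 (118 ± 1.16 CPM). Sox11 (0.07), Egr1 (0.13), Slc12a5 (0.03) and Slc30a3 (0.10) moved little in the second step, with adjusted p of 0.57, 0.16, 0.8 and 0.32. Genes that went on included Fos (13.1 ± 1.79 to 28.8 ± 6.52 CPM), Arc (44.2 ± 5.64 to 90.3 ± 17.1), Cabp7 (85.4 ± 5.48 to 138 ± 13.6) and Trim67 (32.9 ± 6.43 to 15.6 ± 0.207), with adjusted p of 0.012, 0.012, 9.5e-05 and 0.0027. At P15 Mbp measured 692, 855 and 1195 CPM, and its second step did not pass the test (adjusted p = 0.081).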

How the data were processed

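Ribosome-bound poly-adenylated RNA was counted per gene in 20 libraries, of which the 6 named above were compared. The deposited values are raw counts per gene symbol, which the authors did not normalize, as the whole numbers and unequal totals of the columns show. The submitters' processing notes name the build mm10 and, as tools, SAMtools 1.10, featureCounts and STAR 2.7.5b. How strand and multi-mapping reads were treated, and on which annotation, was not given in the sources used here, so counts of near-identical and overlapping genes are uncertain. Of 32245 symbols 10881 were 0 in all 6 libraries and 14443 (44.8%, with 99.91% of counts) passed edgeR's default low-count filter with age as the group. They were fitted with edgeR 4.0.16 in R 4.3.3 (trimmed-mean factors, robust quasi-likelihood, 4 residual degrees of freedom, biological coefficient of variation 8.71%). CPM values are scaled by the same factors, and P15 levels by factors of the 9 libraries of the batch set to that scale. No pair of replicates agreed within sampling noise, which does not show that the libraries are separate animals. Each library was treated as 1 sample.

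On counts simulated for P10 against P5 in 10 draws (200 genes changed among 14259 to 14287) 58.7% of 1.5-fold, 79.9% of 2-fold and 94.7% of 4-fold changes were recovered, and 10.3% of calls were unchanged genes. That last share is above what the threshold of 0.05 is set to allow. Changed genes were far rarer there than the 61.9% called in the data, so these shares do not carry over to the 8940 calls. Named genes are the 15 highest and 15 lowest changes at 5 CPM or more without overlap. They are also the 10 largest gains and losses in CPM. Predicted names, pseudogenes, Xist, Tsix and Y-linked genes were left out of these rankings, and other X-linked genes were kept. Added to them were the 4 members of a list with the smallest p in each direction, up to 6 called against its majority, and a panel. Others were chosen after their values were seen. Genes, lists and motifs were chosen with earlier results of these data known. Coordinates are from GENCODE vM21. Alternatives were DESeq2 size factors, DESeq2 1.42.0, limma-voom (limma 3.58.1), total counts, no filter, a stricter filter, a threshold of 0.01, a replicate block, more libraries and each library left out. Some items are not reported here.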

Additional observations from a re-analysis of the deposited data

How the results depend on the processing

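The count of 8940 genes was 8308 with DESeq2, 8957 with DESeq2 size factors, 8939 with limma-voom, 9332 without a filter, 8744 with at least 1 CPM in 3 libraries, 9134 with the 9 libraries of the batch, 9442 with all 20 and a batch term, 7202 at a threshold of 0.01 and 8015 to 9067 without single libraries. The replicate block gave 8950 genes. Deviations of same-numbered libraries correlated at 0.0203, 0.023 and 0.228, and not every library correlated best with its own number. With 3 libraries per age these values cannot decide whether the numbers pair the samples, which the labels do not state. Total counts gave 9015 and, in an alternative chosen after seeing the data, total counts without the genes above 1% gave 9173, with 2833 higher. Chromatin regulators that fell numbered 14, and 22 and 28 under these scalings and 9 at 0.01. With the genes above 1% left out, members that rose numbered 10 in place of 24 for synaptic adhesion (15 with total counts), 9 in place of 14 for RNA-binding proteins, 17 in place of 26 for the cytoskeleton, 3 in place of 6 for mossy cells and 1 in place of 2 for mitochondrially encoded genes. Members that fell numbered 10 in place of 6 for steroid and thyroid hormone signaling, 9 in place of 5 for activity-regulated genes and 29 in place of 19 for the cytoskeleton. Mitochondrially encoded genes that rose were 0 at 0.01 and 1 to 3 without single libraries, while microglial genes that rose were 2 at 0.01 and 2 to 5 without single libraries, in place of 4. Ntrk2 (0.12) turned to -0.01 with total counts and -0.08 without the genes above 1%, and Pcna (0.19) to -0.01 with the latter. Of 286 named genes, 260 kept their direction and side of the threshold in every setting with a value. The cause of these shifts was not tested.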
